A study of Mus musculus with 12 samples.

Results

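The genes examined here are 9 cytokine genes, Il24, Tnfsf11, Il6, Lif, Il11, Il33, Il1rl1, Csf1 and Csf2, measured by RNA-sequencing in tumourspheres of spindloid mammary tumour cells. Il24 and Tnfsf11 were chosen from measured values, because their counts were lower with Crizotinib alone than with DMSO. The other 7 were taken with them as cytokines or, for Il1rl1, as a cytokine receptor, with earlier results of these data known. They are 9 of the 55573 genes counted, and 7 of them passed the filter on low counts, as did 13836 of all genes. Il6 and Csf2 did not pass.

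Tumourspheres of 3 lines were used, A1005, A1129 and A1471. Each line comes from its own spindloid tumour of the genotype MMTV-Metmt;Trp53fl/+;Cre, in which the promoter of the mouse mammary tumour virus drives an activated Met and Cre removes a floxed Trp53 allele. All groups shared this genotype and a sphere medium that contains basic FGF. Spheres were treated for 24 h with DMSO (the vehicle), with 1 µM Crizotinib (a Met kinase inhibitor), with 1 µM PD173074 (an FGF receptor kinase inhibitor) or with both inhibitors (Combination). Each treatment had 1 library from each line, so the lines are the replicates (n = 3).

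Cytokines are secreted or membrane-bound proteins through which a cell signals to cells that carry the matching receptor. IL-6, LIF and IL-11 act through receptors that share the gp130 chain, encoded by Il6st, and signal by JAK kinases and STAT3. IL-24 acts through receptors of the IL-20 family, while RANKL, encoded by Tnfsf11, and IL-33 act through receptors coupled to NF-kB. In the mammary gland RANKL is known as the signal by which hormone-sensing epithelial cells make their neighbours divide.

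The promoters of 4 of these genes are shown, those of Lif and Il11 for the AP-1 match they share, that of Csf1 because its values went against theirs, and that of Tnfsf11 because it was counted almost only in 1 line. Each run covers 250 bases before to 50 bases after a RefSeq start site (GRCm38.p6, the same assembly as mm10), is given 5′ to 3′ on the strand of the gene, and has motif matches in capitals. Lif lies at chr11:4257318-4257617 (plus strand), with an AP-1 match (TGANTCA) at positions -228 to -222 from the start site and an NF-kB match at -178 to -169. Il11 at its second listed start lies at chr7:4778092-4778391 (minus strand), with an AP-1 match at -98 to -92, and the window at its other start, chr7:4782808-4783107, holds none of the motifs searched. Csf1 lies at chr3:107760420-107760719 (minus strand), with an NF-kB match on the opposite strand at -154 to -145. Tnfsf11 lies at chr14:78307994-78308293 (minus strand), with a TATA match (TATAAA, here on the opposite strand) at -32 to -27.
Lif: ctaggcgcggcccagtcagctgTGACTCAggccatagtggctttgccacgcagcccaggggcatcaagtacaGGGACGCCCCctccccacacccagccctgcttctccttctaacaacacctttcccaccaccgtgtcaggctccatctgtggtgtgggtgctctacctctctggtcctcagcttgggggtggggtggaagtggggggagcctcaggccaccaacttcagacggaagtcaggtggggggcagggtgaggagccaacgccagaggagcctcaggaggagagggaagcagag
Il11: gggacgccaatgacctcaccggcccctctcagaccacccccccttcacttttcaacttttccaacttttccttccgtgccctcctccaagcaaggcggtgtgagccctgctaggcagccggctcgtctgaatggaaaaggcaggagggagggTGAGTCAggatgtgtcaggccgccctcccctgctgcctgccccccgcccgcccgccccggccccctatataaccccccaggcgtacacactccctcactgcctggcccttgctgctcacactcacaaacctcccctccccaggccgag
Csf1: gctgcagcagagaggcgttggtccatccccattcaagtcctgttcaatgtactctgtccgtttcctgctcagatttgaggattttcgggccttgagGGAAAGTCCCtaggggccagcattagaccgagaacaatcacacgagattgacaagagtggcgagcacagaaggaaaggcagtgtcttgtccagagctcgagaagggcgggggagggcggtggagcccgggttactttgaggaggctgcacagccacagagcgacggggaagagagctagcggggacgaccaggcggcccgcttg
Tnfsf11: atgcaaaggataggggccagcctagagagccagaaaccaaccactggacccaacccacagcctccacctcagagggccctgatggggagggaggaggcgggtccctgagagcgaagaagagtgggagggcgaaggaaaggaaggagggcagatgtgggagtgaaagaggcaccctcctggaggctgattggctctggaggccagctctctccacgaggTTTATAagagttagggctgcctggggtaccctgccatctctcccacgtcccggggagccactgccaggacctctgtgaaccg

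The search covered both strands of 11 promoter entries for 8 of the 9 genes, all but Il24. The AP-1 letters were found for 3 genes (Lif, Il11 and Il6), the NF-kB letters for 3 genes (Lif, Il6 and Csf1), the TATA letters for 2 genes (Tnfsf11 and Il33) and the STAT letters (TTCNNNGAA) for none. Of all 32851 RefSeq promoters of this length, 7.81% held an AP-1 match, 8.46% an NF-kB match, 8.3% a STAT match and 13.6% a TATA match. A match describes letters in this window only, and binding was not measured.

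Total counts per library ranged from 13031492 to 17750476. The spindloid label was checked against marker genes. Vim, which encodes the mesenchymal filament protein vimentin, had 30314 to 49234 counts. Krt5, a basal keratin, was at 0 in all 12 libraries, and Cdh1, which encodes E-cadherin, had 0 to 9 counts. The luminal keratin genes Krt8 and Krt18 were counted, with 17 to 611 and 53 to 748 counts, and the mesenchymal cadherin gene Cdh2 had 0 to 6 counts, so the markers did not all go with the label. The 4 endothelial markers summed to at most 0.752 CPM (counts scaled to library size by TMM). Of 11 leukocyte markers, 4 to 9 were at 0 in each library, and their summed level was 60.5 to 90.3 CPM in A1005 and 15.01 to 30.3 CPM in the other lines, most of it from Cd14 and Cd68.

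Per kilobase of exon, the mean level with DMSO was highest for Csf1, at 20.9 ± 11.1 CPM per kb (SD, n = 3), followed by Lif at 19.3 ± 13.7, Il33 at 16.3 ± 24.3, Tnfsf11 at 11.6 ± 20.1, Il24 at 5.61 ± 6.86 and Il11 at 3.302 ± 4.42 CPM per kb. Csf2, Il1rl1 and Il6 were far lower, at 0.210 ± 0.0718, 0.202 ± 0.0796 and 0.0649 ± 0.0861 CPM per kb. Among neighbours in this order, only Il1rl1 and Il6 differed by more than the larger SD of the pair. The SDs are large because single lines dominated several genes. A1005 held 99.98% of the summed CPM of Tnfsf11 and 92.79% of that of Il33, and A1129 held 85.28% of that of Il11 and 73.45% of that of Il24. With the Combination, Csf1 was at 56.5 ± 47.0 CPM per kb and Lif at 5.62 ± 5.66, whereas Il24, at 0.0798 ± 0.0356 CPM per kb, was at about the level of Csf2, at 0.0860 ± 0.0954. The plot of counts by library shows the treatments and the lines side by side.

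**Figure D1:**
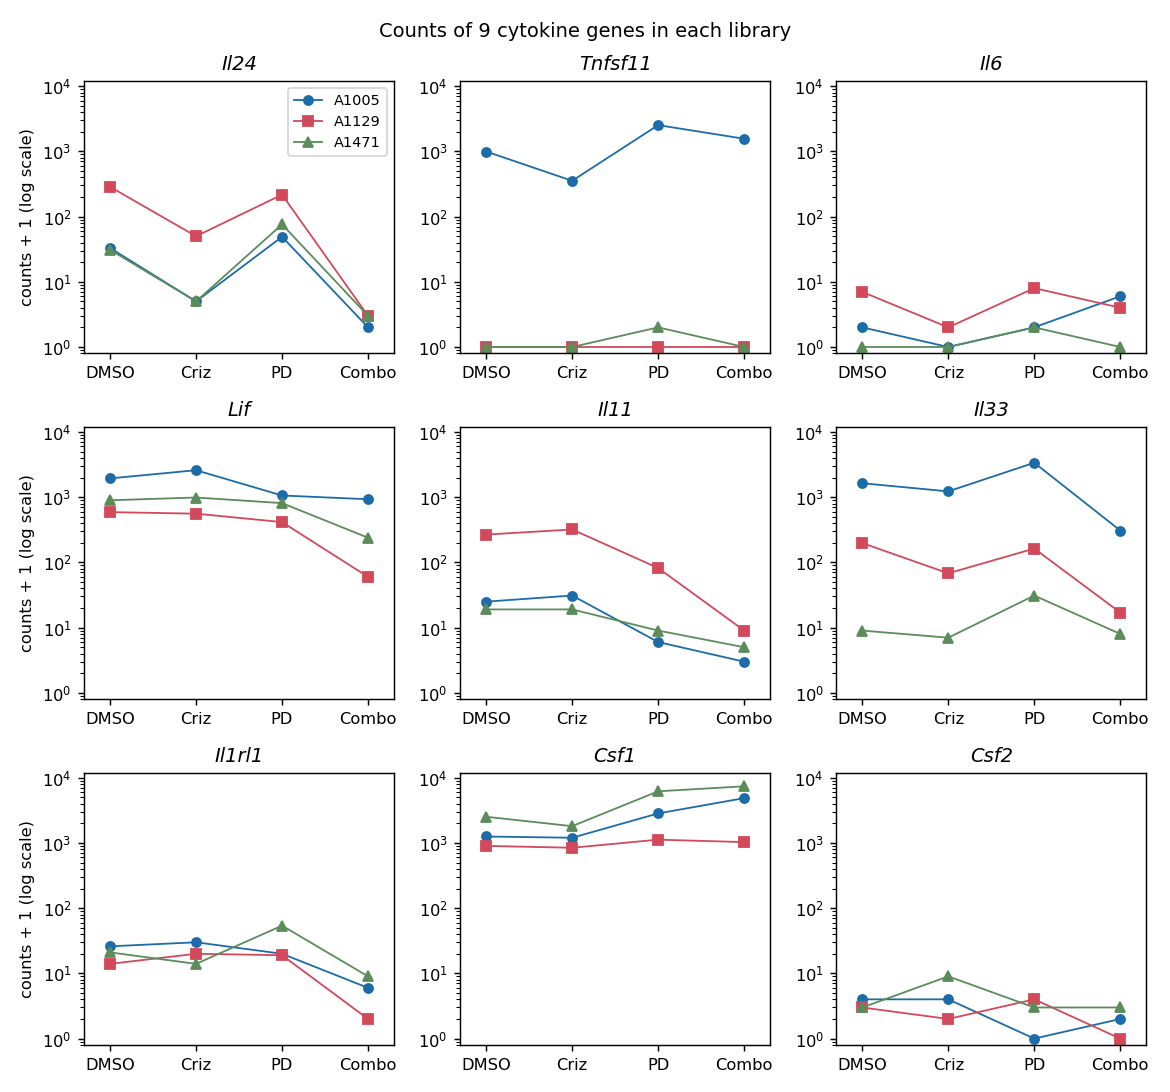
Counts + 1 (log axis) of each of the 9 cytokine genes in the 12 libraries, by treatment (Criz, Crizotinib; PD, PD173074; Combo, Combination). Lines join the libraries of 1 cell line and stand for no time course. Il24 stood at 1 to 2 counts with the Combination in every line, Tnfsf11 was counted almost only in A1005, and Csf1 reached 7407 counts in A1471.

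Il24 encodes a cytokine of the IL-20 family and lies on mouse chromosome 1 (mm10, chr1:130882074-130887454, minus strand). Its counts in A1005, A1129 and A1471 were 32, 285 and 30 with DMSO, 4, 49 and 4 with Crizotinib, 48, 216 and 75 with PD173074, and 1, 2 and 2 with the Combination. The Combination libraries lay below those of each other treatment, whereas the Crizotinib and DMSO libraries overlapped because A1129 started higher.

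Within each line, Il24 with Crizotinib was 9.14-fold lower than with DMSO in A1005 (95% counting interval 3.24 to 35.6), 5.79-fold lower in A1129 (4.27 to 8.01) and 7.20-fold lower in A1471 (2.54 to 28.1). These values chose the gene and are given without a test. All intervals here are exact intervals of a ratio of counts and cover counting error only. No gene passed an adjusted p of 0.05 for Crizotinib against DMSO in edgeR's quasi-likelihood test (0% of 13836 genes called both without and with the line as a block, a term that removes differences between lines shared by all treatments), so 0 of the 7 tested cytokine genes were called. At an unadjusted p under 0.05 there were 18 genes without and 258 with the block, and nothing is read from these counts for genes chosen in this contrast.

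The Combination against PD173074 compares no library of the contrast that chose Il24, although it uses the same lines. Its SE and adjusted p still draw on all 12 libraries, which were fitted together, so they are not independent of the choice. Here Il24 fell, with a log2 fold change of -6.08 ± 1.44 (SE) without the block (edgeR, adjusted p = 0.0418) and -6.25 ± 0.58 with it (edgeR, adjusted p = 4.26e-05). The fall within lines was 52.2-fold in A1005 (8.93 to 2104), 123-fold in A1129 (33.7 to 1025) and 35.4-fold in A1471 (9.46 to 298), and it was seen in 3 of 3 lines. Without the block the call was lost on leaving out A1005 (edgeR, adjusted p = 0.101), A1129 (0.0585) or A1471 (0.272), while with the block it held without each line. In these bulk libraries, fewer cells that express a gene and less RNA per cell cannot be told apart.

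Adding PD173074 to Crizotinib changed the Il24 count from 4 to 1, from 49 to 2 and from 4 to 2 in the 3 lines. Only in A1129 did the counting interval of the ratio lie below equality, at 25.8-fold lower (6.78 to 219), against 4.92-fold (0.486 to 242) in A1005 and 1.91-fold (0.273 to 21.1) in A1471. PD173074 alone gave a ratio to DMSO of 1.16 in A1005 (0.727 to 1.88), 0.825 in A1129 (0.688 to 0.988) and 2.58 in A1471 (1.67 to 4.08), so the lines did not move the same way. The size of the Combination effect on Il24 rests on counts of 1 to 2 per library.

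Il24 sits beside other IL-10 family ligands. Il20 starts 19.5 kb and Il19 45.2 kb away on chromosome 1, and Il10 132 kb away. Il20 was at 0 in all 12 libraries, and Il10 had 0 to 4 counts. Il19, which encodes another ligand of IL-20 receptors, had 53 counts with DMSO, 4 with Crizotinib, 270 with PD173074 and 2 with the Combination in A1005, and at most 4 counts in the other lines. Within A1005 the Il19 count was thus 15.1-fold lower with Crizotinib than with DMSO (5.58 to 57.6), 3.94-fold higher with PD173074 (2.93 to 5.40) and 147-fold lower with the Combination than with PD173074 (40.2 to 1218). These are single libraries of 1 line, Il19 did not pass the filter on low counts, and no test over lines can be had. The plot of the Il24 locus shows this for each line.

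**Figure D2:**
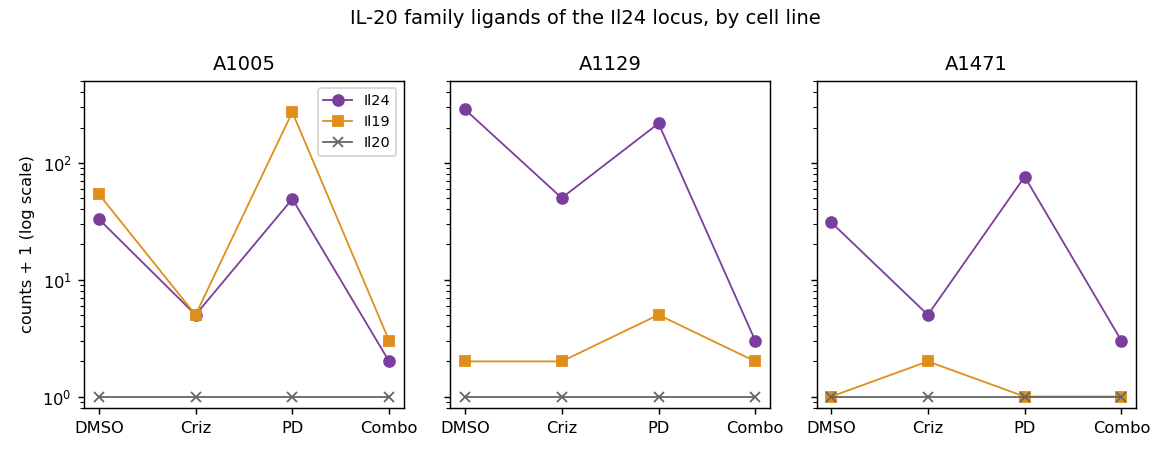
Counts + 1 (log axis) of Il24, Il19 and Il20, ligands encoded next to each other on mouse chromosome 1, by treatment in each cell line. Il19 reached 270 counts in A1005 with PD173074 and at most 4 in A1129 and A1471, where Il24 reached 285 and 75 counts. Il20 was at 0 throughout.

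Tnfsf11 (chr14:78277445-78308043, minus strand) encodes RANKL, a membrane-bound ligand of the TNF family. Its counts in A1005 were 995 with DMSO, 353 with Crizotinib, 2528 with PD173074 and 1562 with the Combination. In A1129 it was at 0 in all 4 libraries and in A1471 it had 0, 0, 1 and 0 counts, so each statement on Tnfsf11 rests on 1 line and has no replicate.

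Within A1005, Tnfsf11 with Crizotinib was 3.22-fold lower than with DMSO (2.85 to 3.65), the value that chose the gene. PD173074 was 1.97-fold higher than DMSO (1.83 to 2.12), and the Combination was 1.12-fold higher (1.03 to 1.21). The Combination thus lay 3.60-fold above Crizotinib alone (3.21 to 4.05) and 1.76-fold below PD173074 alone (1.65 to 1.88). In contrast to Il24, Tnfsf11 with both inhibitors was near its DMSO level in this line. The Combination against PD173074 compares no library of the choosing contrast, but the fit that gave its SE and adjusted p used all 12 libraries. The log2 fold change was -0.81 ± 3.31 without the block (edgeR, adjusted p = 0.947) and -0.84 ± 0.23 with it (edgeR, adjusted p = 0.0247). The second value is a call carried by 1 line, A1005. It was lost on leaving out A1471 (edgeR, adjusted p = 0.0725). Since A1471 had only 0 to 1 counts of Tnfsf11, this loss does not show that A1471 carried part of the call. The leukocyte gene Ptprc was also counted almost only in A1005, with 174, 205, 339 and 314 counts in the order of the treatments above and 0 to 2 in the other lines. The leukocyte markers Cd14 and Cd68 were counted in all lines, but A1005 held 53.06% and 60.83% of their summed CPM, at 347 to 836 and 227 to 439 counts. Cd3e had 0 to 2 counts in A1005, and Lyz2 and Ncr1 had none. The part of these leukocyte genes in the Tnfsf11 values was not tested.

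The counts of the 7 tested cytokine genes past an adjusted p of 0.05 are read against the share of all genes called. For PD173074 against DMSO, 0 of 7 were called without the block, as were 0% of all genes (307 genes at an unadjusted p under 0.05, 0 cytokine genes called by DESeq2 and limma-voom), and 0 of 7 with the block, where 2.14% of all genes were called. For the Combination against DMSO, 1 of 7 was called without the block (14.4% of all genes), and with it 1 rose and 5 fell (54.8% of all genes, 3953 higher and 3625 lower). Against Crizotinib, 0 of 7 were called without the block (13.2% of all genes, 3924 genes at an unadjusted p under 0.05, 1 of 7 by DESeq2 and 0 by limma-voom), and with it 2 rose and 5 fell (53.4%). Against PD173074, 1 of 7 was called without the block (4.77%), and with it 6 fell and 0 rose (39.8% of all genes, 2714 higher and 2792 lower). Its departure from additivity (Combination minus both single effects) called 0 of 7 without the block (0.918% of all genes, 1250 genes at an unadjusted p under 0.05, 0 of 7 also by DESeq2 and limma-voom) and 5 with it, each lower (16.2% of all genes, 755 higher and 1486 lower). Without the block, 1 of 7 against DMSO is the share found over all genes. With the block the genes that fell in each Combination contrast included Il24, Il33, Il1rl1, Il11 and Lif, and the median log2 fold change of the 7 genes was -2.20 against DMSO and -2.61 against PD173074, beside 0.03 and 0.05 over all genes tested. Each of the 5 blocked calls of the departure was lost on leaving out a line (edgeR, adjusted p = 0.208 for Il24 and 0.445 for Il11 without A1129, 0.220 for Il33 without A1005, 0.163 and 0.269 for Lif without A1129 and A1471, and 0.0787, 0.247 and 0.0934 for Il1rl1 without A1005, A1129 and A1471). Against Crizotinib, the blocked calls of Il24 without A1129 (edgeR, adjusted p = 0.202), Il33 without A1005 (0.148), Il1rl1 without A1005 (0.0724) or A1129 (0.118) and Csf1 without A1471 (0.0502) were lost. These comparisons share libraries, and Il24 and Tnfsf11 count here only as a description where DMSO or Crizotinib libraries enter. The blocked calls of Tnfsf11 against each single inhibitor rest on A1005. Because the genes were chosen with earlier results of these data known, their counts and medians describe the list and test nothing about it. The plot of fold changes with the block shows the 7 genes.

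**Figure D3:**
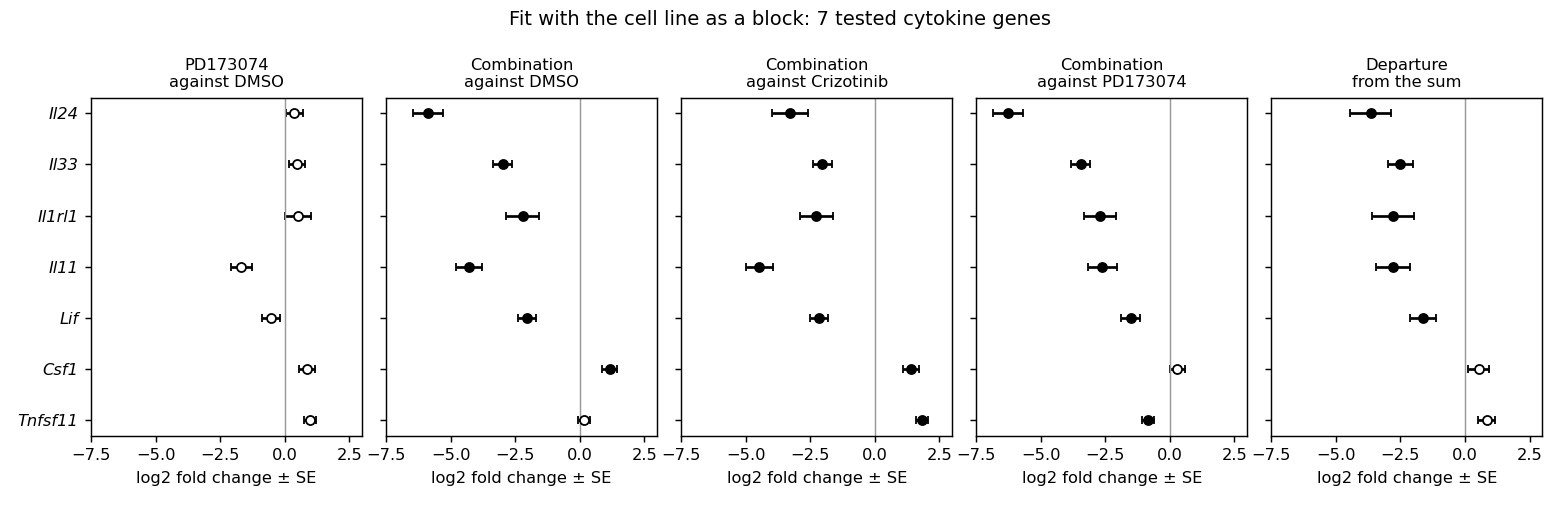
Log2 fold change ± SE of the 7 tested cytokine genes in edgeR's fit with the cell line as a block, for 4 comparisons and for the departure of the Combination from additivity. Filled points have an adjusted p under 0.05 over all 13836 genes and open points do not. Il24, Il33, Il1rl1, Il11 and Lif are filled and below 0 in the 4 panels with the Combination, Csf1 is above 0 in all panels, and with PD173074 alone no point is filled.

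Lif and Il11 encode the gp130 cytokines of the set that passed the filter on low counts, and Il11 was well counted only in A1129. Lif (chr11:4257557-4272514, plus strand), known for keeping mouse embryonic stem cells undifferentiated, had 1941, 589 and 896 counts with DMSO, 2593, 558 and 988 with Crizotinib, 1061, 414 and 810 with PD173074, and 929, 59 and 238 with the Combination (order of lines as for Il24). The Combination was lowest in each line, but the groups overlapped because A1005 had more Lif throughout. Against DMSO, Lif was 2.93-fold lower in A1005 (2.71 to 3.18), 10.5-fold lower in A1129 (8.01 to 13.9) and 3.45-fold lower in A1471 (2.98 to 3.99).

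Its log2 fold change for the Combination against DMSO was -1.78 ± 0.89 without the block (edgeR, adjusted p = 0.222) and -2.04 ± 0.36 with it (edgeR, adjusted p = 0.000959), and the blocked call held without each line. Against Crizotinib the blocked value was -2.16 ± 0.36 (edgeR, adjusted p = 0.000717). Against PD173074 it was -1.52 ± 0.36 (edgeR, adjusted p = 0.00888), a call lost without A1129 (0.0629) or A1471 (0.0966). The lines differed in how much of the fall PD173074 alone gave, since Lif with PD173074 was 2.36-fold below DMSO in A1005 (2.19 to 2.55), 1.31-fold in A1129 (1.15 to 1.49) and 1.07-fold in A1471 (0.975 to 1.18). With Crizotinib alone the ratio of Lif to DMSO was 1.17, 0.951 and 1.15 in the 3 lines.

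Il11 (chr7:4772373-4782859, minus strand), which encodes a gp130 cytokine made by stromal cells and many metastatic tumour cells, had 24, 266 and 18 counts with DMSO, 30, 319 and 18 with Crizotinib, 5, 81 and 8 with PD173074, and 2, 8 and 4 with the Combination. The Combination libraries did not overlap with those of DMSO or Crizotinib. Il11 was 16.9-fold lower than with DMSO in A1005 (4.18 to 147), 34.9-fold lower in A1129 (17.5 to 81.7) and 4.12-fold lower in A1471 (1.36 to 16.7).

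Il11 had a log2 fold change for the Combination against DMSO of -4.46 ± 1.66 without the block (edgeR, adjusted p = 0.105) and -4.29 ± 0.52 with it (edgeR, adjusted p = 0.000106), and the blocked call held without each line. Part of this fall was present with PD173074 alone, at -1.67 ± 0.39 against DMSO with the block (edgeR, adjusted p = 0.0599), which did not pass. Against PD173074 the Combination gave -2.61 ± 0.56 with the block (edgeR, adjusted p = 0.00527). That call was lost without A1129, at -1.11 (edgeR, adjusted p = 0.324), the line with most of the Il11 counts. The promoters of Lif and Il11 shown above both hold an AP-1 match, as does that of Il6, but the window at the other start of Il11 does not.

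Il6 (chr5:30013114-30019981, plus strand), the gp130 cytokine after which the family is named, had 1, 6 and 0 counts with DMSO, 0, 1 and 0 with Crizotinib, 1, 7 and 1 with PD173074, and 5, 3 and 0 with the Combination. No difference in Il6 between treatments was detectable at this depth.

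Il33 (chr19:29925114-29960718, plus strand) encodes an alarmin of the IL-1 family, a nuclear cytokine that is released from damaged cells. Its counts were 1636, 197 and 8 with DMSO, 1227, 67 and 6 with Crizotinib, 3374, 162 and 30 with PD173074, and 307, 16 and 7 with the Combination. The lines were set apart more than the treatments, and only in A1005 and A1129 was the gene well counted. In those lines the Combination was 7.48-fold (6.62 to 8.48) and 12.9-fold (7.76 to 23.1) below DMSO, while in A1471 the ratio could not be told from equality, at 1.05-fold lower (0.332 to 3.39).

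The log2 fold change of Il33 for the Combination against DMSO was -2.91 ± 2.31 without the block (edgeR, adjusted p = 0.461) and -2.98 ± 0.38 with it (edgeR, adjusted p = 0.000134). Against PD173074 it was -3.54 ± 2.37 (edgeR, adjusted p = 0.5) and, with the block, -3.46 ± 0.38 (edgeR, adjusted p = 0.000125), and in this comparison Il33 was lower in 3 of 3 lines, by 11.9-fold (10.6 to 13.5), 11.6-fold (6.91 to 20.7) and 4.04-fold (1.74 to 10.9). Both blocked calls held without each line. Crizotinib alone gave 1.52-fold less than DMSO in A1005 (1.41 to 1.64) and 2.93-fold less in A1129 (2.21 to 3.92). PD173074 alone gave 1.60-fold more in A1005 (1.505 to 1.69) and 3.87-fold more in A1471 (1.73 to 9.76), with a ratio of 0.895 in A1129 (0.722 to 1.11). Beyond the sum of both inhibitors, Il33 with the Combination was lower by a log2 value of -2.51 ± 0.49 with the block (edgeR, adjusted p = 0.00912), a call lost without A1005 (0.220).

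Il1rl1 (chr1:40429570-40465415, plus strand) encodes ST2, the receptor chain that binds IL-33. It had 25, 13 and 20 counts with DMSO, 29, 19 and 13 with Crizotinib, 19, 18 and 53 with PD173074, and 5, 1 and 8 with the Combination. The receptor was thus counted at a low level in all 3 lines, and the Combination libraries lay below all others. The log2 fold change of Il1rl1 for the Combination against DMSO was -2.14 ± 0.77 without the block (edgeR, adjusted p = 0.0950) and -2.20 ± 0.64 with it (edgeR, adjusted p = 0.0142), a call lost without A1005 (0.0773) or A1129 (0.0918). Against PD173074 it was -2.70 ± 0.78 (edgeR, adjusted p = 0.0836) and, with the block, -2.72 ± 0.61 (edgeR, adjusted p = 0.00666), lost without A1129 (0.0700). Il1rap, which encodes the co-receptor of ST2, was far better counted, at 1397, 1312 and 1080 counts in the DMSO libraries against 1256, 509 and 296 under the Combination. The edgeR log2 fold change of Il1rap was -1.12 ± 0.38 without (adjusted p = 0.0790) and, with the block, -1.23 ± 0.20 (edgeR, adjusted p = 0.000539). The genes of IL-33, its receptor and the co-receptor thus each passed with the block and not without it, and for Il33 the A1471 counts (8 and 7) did not differ beyond counting error.

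Csf1 (chr3:107741048-107760469, minus strand), which encodes the macrophage growth factor M-CSF, was the only cytokine gene of the set called higher with the Combination than with DMSO by the blocked fit. Its counts were 1257, 902 and 2522 with DMSO, 1202, 844 and 1812 with Crizotinib, 2842, 1124 and 6206 with PD173074, and 4875, 1031 and 7407 with the Combination. In A1005 and A1471 the Combination was above DMSO beyond counting error, and in A1129 it was not. Csf1 with the Combination was 2.76-fold above DMSO in A1005 (2.59 to 2.94) and 3.21-fold in A1471 (3.07 to 3.36), against 1.09-fold in A1129 (0.995 to 1.19).

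Csf1 had a log2 fold change for the Combination against DMSO of 1.43 ± 0.80 without the block (edgeR, adjusted p = 0.273) and 1.16 ± 0.30 with it (edgeR, adjusted p = 0.00782), and this call was lost without A1005 (0.0765) or A1471 (0.0784). PD173074 alone gave 0.87 ± 0.29 with the block (edgeR, adjusted p = 0.182), and 1.09 once A1129 was left out (edgeR, adjusted p = 0.0471). The ratio of Csf1 with PD173074 to DMSO was above 1 in 3 of 3 lines, at 1.75 (1.64 to 1.87), 1.36 (1.24 to 1.48) and 2.54 (2.42 to 2.66). In A1471, the summed level of 6 mesenchymal markers was 3983, 3493, 5791 and 9703 CPM with DMSO, Crizotinib, PD173074 and the Combination, the order in which Csf1 stood in that line. Most of the 9703 CPM came from 1 marker, Fn1, at 5093 CPM, while Vim ranged only from 37450 to 44766 counts over the treatments of A1471. The sum thus does not describe the 6 markers alike. In the other lines the orders differed, since in A1129 this sum was lowest with PD173074 (3288 CPM), where Csf1 was highest, and in A1005 it was higher with Crizotinib (5386 CPM) than with DMSO (5177 CPM), while Csf1 was lower. Its part in the Csf1 values was not tested.

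Csf2 (chr11:54247271-54249667, minus strand), which encodes GM-CSF, had 3, 2 and 2 counts with DMSO, 3, 1 and 8 with Crizotinib, 0, 3 and 2 with PD173074, and 1, 0 and 2 with the Combination. No difference in Csf2 was detectable at this depth. It shares 96 exon bases with the antisense gene Gm12223, and the strand setting of the counting is not given in the sources used here, so reads of the overlap cannot be told apart. The genes of its receptor chains, Csf2ra and Csf2rb, had 0 to 2 counts. Csf3, which encodes the related granulocyte factor G-CSF, was by contrast well counted, with 3828, 2675 and 1183 counts with DMSO, 4039, 2475 and 1398 with Crizotinib, 1935, 1731 and 1114 with PD173074, and 416, 39 and 9 with the Combination. Csf3 fell with the Combination against DMSO, with an edgeR log2 fold change of -4.40 ± 1.10 unpaired (adjusted p = 0.0265) and, with the block, -4.72 ± 0.61 (edgeR, adjusted p = 0.000147), and its libraries did not overlap. In A1005 and A1471, Csf1 and Csf3 thus stood on opposite sides of their DMSO levels, while in A1129 Csf1 did not differ from DMSO beyond counting error. The rise of Csf1 was called only with the block, and that call was lost without A1005 or A1471.

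Receptors for these ligands were followed as a list of 13 genes, of which 7 were tested. For the Combination against DMSO, 2 of 7 rose and 0 fell without the block (14.4% of all genes called), with a median log2 fold change of 0.60 (0.02 over all genes tested). With the block, 2 rose and 1 fell (54.8% of all genes called), with a median of 0.57 (0.03 over all genes). The risers were Il6st, which encodes gp130, and Il11ra1, which encodes the IL-11 receptor. Il6st rose from 3079, 3160 and 4970 counts to 8764, 7963 and 9295, 1.09 ± 0.28 on the log2 scale (edgeR, adjusted p = 0.0284). Il11ra1 rose from 154, 87 and 99 counts to 421, 344 and 238, 1.36 ± 0.36 on the log2 scale (edgeR, adjusted p = 0.0348). Of the other receptor genes of the gp130 group, Il6ra and Lifr, which encodes the receptor chain that binds LIF, were not called, with blocked values of 0.14 ± 0.20 (edgeR, adjusted p = 0.565) and 0.57 ± 0.34 (edgeR, adjusted p = 0.183). The IL-24 receptor genes were little counted, with 18 to 54 counts of Il20rb, 0 to 1 of Il22ra1 and none of Il20ra. Tnfrsf11a, the receptor of RANKL, had 0 to 54 counts, and its decoy Tnfrsf11b 0 to 14.

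Other ligands and related genes formed a list of 22, of which 13 were tested. For the Combination against DMSO, 1 of 13 rose (Il7) and 1 fell (Csf3) without the block, near the 14.4% of all genes called. The median log2 fold change was 0.60 (0.02 over all genes). Il7 had 1 count in each DMSO library and 9 to 15 with the Combination. It thus passed the filter on low counts through the group where it was high, and its call is only a description. With the block, 6 rose and 5 fell (54.8% of all genes called), with a median of 0.55 (0.03 over all genes). The risers with the block included Il15 at 2.57 ± 0.35 (edgeR, adjusted p = 0.000222) and Il18 at 2.66 ± 0.41 (edgeR, adjusted p = 0.000453). Neither was called without the block (edgeR, adjusted p = 0.0849 and 0.430). The genes that fell included Clcf1, another gp130 ligand, at -1.55 ± 0.18 (edgeR, adjusted p = 7.31e-05). Tslp, Il23a and Tnfsf9 also fell with the block, at -2.41 ± 0.64, -1.83 ± 0.49 and -1.12 ± 0.36 (edgeR, adjusted p = 0.00898, 0.00917 and 0.0227). They were not called without it (edgeR, adjusted p = 0.299, 0.340 and 0.823). Single lines dominated them, as A1129 held 85.67% of the summed CPM of Tslp, and A1005 held 70.12% of that of Il23a and 79.63% of that of Tnfsf9. In A1005 the Tnfsf9 counts were 193 to 206 over the treatments. Il1rn, which encodes the IL-1 receptor antagonist, had 71, 65, 1059 and 1751 counts in A1005 in the order DMSO, Crizotinib, PD173074 and Combination, and 0 to 2 counts in the other lines. Il1rn was among the 6 risers with the block, at 4.05 ± 0.35 (edgeR, adjusted p = 1.35e-05), but like that of Tnfsf11, its value has no replicate line.

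Mediators and feedback genes of JAK-STAT and NF-kB signalling formed a list of 23, all tested. For the Combination against DMSO, 2 of 23 rose and 1 fell without the block, near the 14.4% of all genes called, with a median log2 fold change of 0.63 (0.02 over all genes). With the block, 14 rose and 1 fell (54.8% of all genes called), with a median of 0.68 (0.03 over all genes). Relb, an NF-kB subunit, rose from 364, 520 and 351 counts to 1283, 981 and 964, 1.24 ± 0.16 on the log2 scale (edgeR, adjusted p = 0.00135). Tnfaip3, which encodes the NF-kB feedback inhibitor A20, rose by 2.17 ± 0.41 (edgeR, adjusted p = 0.00737). Socs1, which encodes a JAK inhibitor induced by cytokines, was the gene that fell, at -1.30 ± 0.39 on the log2 scale (edgeR, adjusted p = 0.0495). Its counts were 125, 186 and 172 for DMSO and 125, 35 and 61 for the Combination. The equal A1005 counts came from libraries of unlike size, and stood for 9.76 CPM with DMSO and 6.95 CPM with the Combination. Stat3, which encodes the factor downstream of gp130, was at 0.75 ± 0.42 without the block (edgeR, adjusted p = 0.278) and at 0.81 ± 0.13 with it (edgeR, adjusted p = 0.000441). Socs3, a STAT3 target that damps gp130, was not called, at -0.07 ± 0.25 with the block (edgeR, adjusted p = 0.821). Transcript levels alone were measured, not the activity of these pathways.

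Likeness of pattern was described by Pearson's r of log2 CPM centred within each line, over the 12 libraries and 11564 genes. The points share lines and treatments, and no test was made. The genes nearest to Il24 were Tpi1 (r = 0.965), Higd1a (r = 0.960) and Egln1 (r = 0.948). For Tnfsf11 they were Chl1 (r = 0.947), Chst2 (r = 0.924) and Jak3 (r = 0.867), and for Lif they were Rhobtb2 (r = 0.986), Txn2 (r = 0.983) and Nme2 (r = 0.981). Since Tnfsf11 had 0 counts in A1129 and 0 to 1 in A1471, its r values rest mostly on the A1005 libraries, also for Chst2 and Jak3, which were counted in all lines. Among the 21 pairs of tested cytokine genes, r was highest for Lif with Il11 (0.943) and for Il24 with Il33 (0.914), and lowest for Il11 with Csf1 (-0.583). Chl1, like Tnfsf11, was counted in A1005, at 112, 18, 739 and 212 counts in the order DMSO, Crizotinib, PD173074 and Combination, and had 0 to 1 counts in the other lines.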

How the data were processed

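Groups and lines follow the sample labels. The values deposited by the authors are raw counts per Ensembl gene for 12 libraries, without normalization. Per the labels and the methods of the study, total RNA was sequenced on a NextSeq500 and aligned to mm10 with STAR, and HTSeq is among the tools in the submitters' processing notes. Tool versions, the annotation release and the strand setting are not given in the sources used here. The table holds columns for these 12 libraries only.

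The members and gene lists were chosen with earlier results of these data known. The rule for genes named was the 9 members, the receptor, ligand and mediator lists, the marker genes and the 3 genes most like Il24, Tnfsf11 and Lif among genes averaging 1 or more on the log2 CPM scale. Low counts were removed with filterByExpr (a minimum of 10 per library and 15 in total), scaled by TMM and tested by edgeR 4.0.16 (quasi-likelihood, R 4.3.3) in one unpaired fit over 12 libraries, as the study's methods state an unpaired analysis, with Benjamini-Hochberg adjustment over all 13836 genes and a threshold of 0.05. Log2 CPM used a prior count of 2. Intervals within a line are exact binomial intervals (95%) of the ratio of counts, scaled by effective library size (scipy 1.17.1). They cover counting error only, since reads that no molecular identifier marks are not independent. Libraries of the same line are paired by the line in the labels. The deviations from the treatment means of same-line libraries correlated at 0.766 to 0.962 (18 pairs), against a mean of -0.422 between lines (36 pairs), so the blocked fit is given beside each result whose call it changes. Alternatives were DESeq2 1.42.0, limma-voom (limma 3.58.1), DESeq2's size factors, no filter on low counts, only the libraries compared, a minimum log2 change of 1.5 in either direction, a prior count of 0.5 and leaving out each line. Leaving out lines in the blocked fit was chosen after seeing the data. The comparison of the Combination with DMSO was first checked on simulated counts, by edgeR with and without the block and by DESeq2 and limma-voom without it. The other comparisons and the count intervals were not checked this way. Positions are from the GENCODE annotation of mm10, which matched 55480 of the 55573 genes, and promoters from RefSeq (GRCm38.p6). No pair of libraries held identical counts. The values of 1 marker gene are not reported here. Tables and plots used Python 3.11.15, pandas 2.3.3 and matplotlib 3.10.9.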

Additional observations from a re-analysis of the deposited data

Results flagged for a closer look

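For 2 of the cytokine genes, lines moved in opposite directions beyond counting error under the same contrast. Il24 with PD173074 against DMSO had a ratio of 2.58 in A1471 and of 0.825 in A1129. Csf1 with the Combination against PD173074 had ratios of 1.58 in A1005 and 1.26 in A1471, and of 0.803 in A1129. Each ratio compares 1 library per line and treatment, so the differences between lines were not tested over replicates.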

How the results depend on the processing

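The cell line as a block was the choice that moved the counts most. Of 7 tested cytokine genes, the number called for the Combination went from 1 to 6 against DMSO (14.4% to 54.8% of all genes tested). It went from 0 to 7 against Crizotinib (13.2% to 53.4% of all genes) and from 1 to 6 against PD173074 (4.77% to 39.8%). For the departure from the sum of both inhibitors it went from 0 to 5 (0.918% to 16.2%). The block changed no call for PD173074 against DMSO (0% to 2.14%). The block thus raised the share called over all genes as well. For the alternatives that follow, the shares over all genes are not given. Unpaired, DESeq2 called 2 against DMSO, 1 against Crizotinib and 2 against PD173074, and limma-voom called 0 against DMSO and 0 against PD173074. Leaving out each line gave 0 to 1 unpaired calls against DMSO (0 without A1005 or A1471) and 0 to 0 against PD173074. With the block, it gave 4 to 6 calls against Crizotinib, 3 to 5 against PD173074, 1 to 3 for the departure (1 without A1129) and 0 to 1 for PD173074 against DMSO (Csf1, without A1129), and 4 to 5 for the Combination against DMSO. Directions turned for 2 genes that were not called with PD173074 alone. Leaving out each line gave log2 fold changes of -0.19 to 0.85 for Il24 (-0.048 to 0.81 with the block) and of -0.19 to 1.18 for Il1rl1 (-0.11 to 1.10), each lowest without A1471. With limma-voom the departure of Tnfsf11 turned to -0.52. DESeq2's size factors and no filter on low counts changed no call of the 7 genes. Depth limits Il6 and Csf2, Il24 with the Combination, and Tnfsf11 outside A1005. The lone library of a line and treatment is assumed to vary like the others. Nothing says that the libraries of a line came from separate cultures, and the cause of these shifts was not tested.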
